A study of Homo sapiens with 12 samples.

Results

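501Mel, an established human BRAF-V600E melanoma line, was exposed to TCDD (the dioxin tetrachlorodibenzo-p-dioxin) on top of resveratrol (RSV), and the part of the TCDD response that stayed in the presence of RSV is described here by pathway. The libraries were chosen by their treatment labels, 2 with RSV+TCDD and 2 with RSV alone, which is 4 of the 12 libraries of the study. All cells were treated for 48 h and received RSV at 5 μM. The dose of TCDD in the combination is 10 nM in the treatment protocol and in the study's methods but 1 nM in the label of the same libraries, and it could not be settled from the counts. If the label holds, each difference between the TCDD effect with and without RSV is also one between doses, and the presence of RSV and the dose cannot be told apart in it. For comparison, 2 libraries with 10 nM TCDD and 2 with vehicle (DMSO), none of which had RSV, were read the same way. The study also holds Vemurafenib libraries, which served here only to estimate the spread between replicates. One line was used in all groups, and nothing in the labels says whether the 2 libraries of a group came from separate cultures, so p-values measure the spread between these libraries, which may be technical.

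TCDD is a ligand of the aryl hydrocarbon receptor (AhR), a transcription factor that waits in the cytosol with chaperones, moves to the nucleus upon ligand binding, pairs with ARNT and binds xenobiotic responsive elements. Its textbook targets are enzymes of drug metabolism, CYP1A1 first among them, together with feedback genes such as TIPARP and AHRR. RSV is a plant polyphenol known as an antagonist of this receptor. The comparison asks what TCDD still changes when RSV is present.

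The files hold counts of read pairs per gene symbol. Gene counts totalled 15375956 and 18168534 in the RSV libraries and 18818133 and 20448379 in the RSV+TCDD libraries, and RIN values, a measure of RNA integrity, were 9.2 and 9.5 against 9.1 and 9.2. Melanocyte markers were high in all 4 libraries, with a summed level of 10150 and 10680 CPM (counts scaled to a common library size) with RSV and 15140 and 15470 with RSV+TCDD. PMEL held a large part of these sums, with means of 5755 and 8886 CPM after TMM scaling. At the threshold used below PMEL, TYR, DCT, MLANA and SOX10 rose, while MITF (log2 fold change 0.25) and S100B (-0.29) did not pass it. Fibroblast markers summed to between 11.1 and 14.3 CPM in these libraries (11.3 to 14.7 with vehicle and 29.4 to 36.6 with TCDD alone), leukocyte markers to at most 3.85, endothelial markers to at most 1.30 and keratinocyte markers to at most 0.110. ERCC spike-ins, control RNAs added to the samples, stood at 349 and 413 CPM of gene counts with RSV and at 630.5 and 937 with RSV+TCDD. The 2 libraries with RSV and Vemurafenib, replicates of each other, were at 389 and 904. The study made its libraries from a fixed amount of total RNA, and the step at which spike-ins were added is not given. Spike-in levels therefore do not measure RNA per cell here. Levels below are TMM-scaled CPM, so each change is relative to the bulk of the genes, whose median log2 fold change was 0.002. Scaling to the spike-ins put this median at -1.02 and turned the sign of many increases named below, with values in the closing section. Fewer cells of a type and less RNA per cell cannot be told apart in such data.

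TCDD added to RSV changed 991 of 16080 tested genes, 625 higher (3.89% of the tested genes) and 366 lower (2.28%), at an adjusted p below 0.05 by the quasi-likelihood test of edgeR after Benjamini-Hochberg adjustment. The changes were small, with a median log2 fold change of 0.52 among the genes that rose and -0.66 among those that fell, and 61 and 107 of them reached a log2 fold change of 1 in size. In the absence of RSV, TCDD raised 759 genes (4.72%) and lowered 323 (2.01%). The 2 comparisons share no library. Of the genes raised by TCDD with RSV, 313 were also raised without it, which is 50.1% of the former and 41.2% of the latter list and 1.95% of the tested genes. Of the lowered genes, 75 were shared, which is 20.5% and 23.2% of the lists and 0.466% of the tested genes. These shared genes are called kept below. There were 2 genes called in opposite directions, both of them lower with RSV and higher without.

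The calls depended on single libraries. Without RSV replicate 2 the genes called with RSV were 252 higher and 131 lower, without RSV+TCDD replicate 1 they were 274 and 165, and without RSV+TCDD replicate 2 they were 250 and 80. The kept genes fell to 149 higher and 33 lower, 168 and 47, and 131 and 23 in the same order. They were 127 and 21 without TCDD replicate 1, and 140 and 22 without TCDD replicate 2. The genes called without RSV were 256 higher and 37 lower without TCDD replicate 1, 298 and 45 without TCDD replicate 2, 615 and 197 without vehicle replicate 1 and 426 and 390 without vehicle replicate 2. With 2 libraries against 2, the smallest two-sided p of an exact permutation test is 0.333, so each adjusted p depends on the spread the model estimates.

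The genes called with RSV and not without it were 312 higher and 289 lower, a division that rests on the threshold. Without RSV, 279 of the 312 were also above vehicle and 251 of the 289 below it, with median log2 fold changes of 0.24 and -0.27. The difference between the TCDD effect with and without RSV, tested as an interaction in the same model, was called for 3 of these genes and for 24 of all tested genes (0.149%), 2 higher and 22 lower with RSV. These calls depended on the libraries as well: without vehicle replicate 2 there were 126 higher and 53 lower, without TCDD replicate 1 none higher and 4 lower, without TCDD replicate 2 none and 7, without RSV+TCDD replicate 1 there were 2 and 11 and without RSV+TCDD replicate 2 there were 2 and 12. Without RSV replicate 1 they were 5 and 19, without RSV replicate 2 they were 1 and 22, and without vehicle replicate 1 none higher and 31 lower.

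The genes listed as AhR targets showed little of the TCDD response with RSV. Of 15 listed targets, 8 had enough counts to be tested. With RSV, TCDD raised 1 of them (CYP27A1) and lowered 1 (CYP1A1), with a median log2 fold change of 0.003, while without RSV it raised 5 and lowered none, with a median of 0.80. Of all tested genes, 3.89% were called higher and 2.28% lower with RSV, and 4.72% and 2.01% without it.

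CYP1A1, the prototypical target that oxidizes polycyclic aromatic compounds, is a gene of the minus strand of chromosome 15 (GRCh37, 75011883 to 75017877). It stood at 69.0 and 67.5 CPM with RSV and at 41.8 and 42.2 CPM with RSV+TCDD, against 23.5 and 23.1 with vehicle and 156 and 131 with TCDD. The RSV+TCDD libraries thus lay below the RSV libraries and above the vehicle libraries, without overlap. TCDD moved CYP1A1 by -0.70 on the log2 scale with RSV (standard error 0.12, adjusted p = 0.00185) and by 2.62 without it (adjusted p = 3.60e-10), and the interaction was -3.32 (adjusted p = 1.50e-09).

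TIPARP, a mono-ADP-ribosyltransferase that dampens AhR signalling, was at 70.7 and 60.8 CPM with RSV and at 76.3 and 81.7 with RSV+TCDD. This difference of 0.27 on the log2 scale was not called (standard error 0.11, adjusted p = 0.184), whereas it was 0.96 without RSV. The interaction of -0.70 did not pass the threshold either (adjusted p = 0.105). NQO1, a quinone reductase shared by the AhR and NRF2 pathways, was at 290 and 288 CPM with RSV and at 273 and 308 with RSV+TCDD, so the groups overlapped. It was at 287 and 300 CPM with vehicle and at 627 and 578 with TCDD. The interaction was -1.03 (adjusted p = 9.18e-04).

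CYP27A1, a sterol 27-hydroxylase of bile acid synthesis that the study's text does not name as a target, was the listed gene that kept its rise. Its level was 103 and 91.8 CPM with RSV against 136 and 142 with RSV+TCDD, and 83.3 and 75.4 with vehicle against 121 and 125 with TCDD. The log2 fold changes were 0.52 with RSV (standard error 0.09, adjusted p = 0.00339) and 0.64 without, and the interaction was -0.12 (adjusted p = 0.898). CYP1A1 and CYP27A1 stayed called, in the same direction, when each of the 4 libraries was left out.

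CYP1B1, another AhR-induced cytochrome, lay below 1 CPM in every library, with 0.241 and 0.105 CPM with RSV and 0.253 and 0.565 with RSV+TCDD, and was not called (1.26, adjusted p = 0.294). AHRR, the repressor of the receptor (-0.10), the amino acid transporter SLC7A5 (-0.00) and the prostaglandin synthase PTGS2 (-1.15, from under 1 CPM) were not called either. The untested targets CYP1A2, ALDH3A1, UGT1A6, CYP2S1, ABCG2 and EREG had at most 4 counts in any of the 8 libraries, and SERPINB2 at most 13. The receptor gene AHR itself had a log2 fold change of -0.22 and ARNT of -0.01, neither called.

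**Figure D1:**
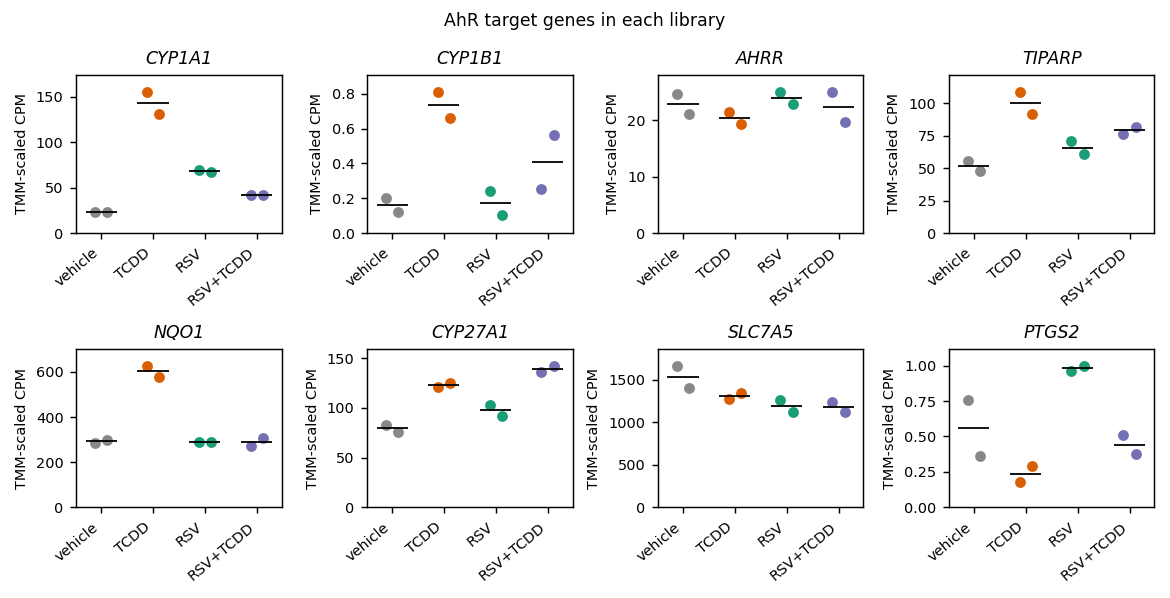
Level of each tested AhR target gene (TMM-scaled CPM, axis from 0) in the 2 libraries of vehicle, TCDD, RSV and RSV+TCDD. Points are libraries and lines are group means. CYP1A1 falls from 69.0 and 67.5 CPM with RSV to 41.8 and 42.2 with RSV+TCDD, NQO1 stays between 273 and 308 CPM with RSV, and CYP27A1 is higher with TCDD in both pairs of groups.

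The promoter sequences of CYP1A1 and TIPARP are shown because TCDD raised both genes without RSV and neither with it. They are followed by the first kept genes in each direction that have an entry, TENM4 and VGF (higher) and DDAH1 and MYOF (lower). Each is a stretch of 300 bases, from 250 before to 50 after the start of the gene in RefSeq on GRCh38.p14, a later build than the one the reads were aligned to. Capitals mark the core of the xenobiotic responsive element, GCGTG or its reverse complement CACGC.
CYP1A1 (chr15:74725479-74725778, minus strand): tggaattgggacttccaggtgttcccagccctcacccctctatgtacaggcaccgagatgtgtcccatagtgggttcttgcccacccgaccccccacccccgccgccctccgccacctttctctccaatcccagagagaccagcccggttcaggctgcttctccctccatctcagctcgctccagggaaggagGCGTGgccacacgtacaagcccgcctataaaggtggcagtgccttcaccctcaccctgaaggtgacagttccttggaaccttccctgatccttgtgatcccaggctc
TIPARP (chr3:156674340-156674639, plus strand): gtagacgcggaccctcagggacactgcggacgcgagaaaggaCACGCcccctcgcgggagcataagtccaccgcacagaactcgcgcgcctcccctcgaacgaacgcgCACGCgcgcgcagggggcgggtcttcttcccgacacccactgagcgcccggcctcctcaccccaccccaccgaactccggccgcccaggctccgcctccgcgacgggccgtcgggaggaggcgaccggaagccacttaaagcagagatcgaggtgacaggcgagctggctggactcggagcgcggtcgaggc
TENM4 (chr11:79440981-79441280, minus strand): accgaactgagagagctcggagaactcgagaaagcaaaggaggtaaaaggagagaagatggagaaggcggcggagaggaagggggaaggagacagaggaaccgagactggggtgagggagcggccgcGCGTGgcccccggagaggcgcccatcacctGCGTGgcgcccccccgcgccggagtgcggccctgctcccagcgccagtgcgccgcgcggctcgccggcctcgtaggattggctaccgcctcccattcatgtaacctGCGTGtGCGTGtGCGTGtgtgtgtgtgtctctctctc
VGF (chr7:101165520-101165819, minus strand): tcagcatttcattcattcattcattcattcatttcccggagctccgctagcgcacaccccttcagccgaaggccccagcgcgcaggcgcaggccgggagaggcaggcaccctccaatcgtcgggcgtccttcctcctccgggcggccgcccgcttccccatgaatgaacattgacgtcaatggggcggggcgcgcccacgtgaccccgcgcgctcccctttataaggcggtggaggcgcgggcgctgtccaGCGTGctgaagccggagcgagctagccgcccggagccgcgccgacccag
DDAH1 (chr1:85578151-85578450, minus strand): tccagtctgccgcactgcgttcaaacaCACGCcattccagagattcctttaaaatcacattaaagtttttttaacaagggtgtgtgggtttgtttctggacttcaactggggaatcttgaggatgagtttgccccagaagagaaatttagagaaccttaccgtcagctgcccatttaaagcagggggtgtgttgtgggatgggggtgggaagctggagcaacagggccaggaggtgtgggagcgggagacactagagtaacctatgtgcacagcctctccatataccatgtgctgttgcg
MYOF (chr10:93482285-93482584, minus strand): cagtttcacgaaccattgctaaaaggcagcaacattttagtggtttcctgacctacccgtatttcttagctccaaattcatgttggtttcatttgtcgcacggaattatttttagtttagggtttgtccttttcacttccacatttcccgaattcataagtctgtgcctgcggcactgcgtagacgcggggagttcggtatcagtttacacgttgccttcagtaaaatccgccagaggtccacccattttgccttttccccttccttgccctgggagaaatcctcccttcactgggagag

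The core stands once in the CYP1A1 stretch, 57 bases before the start (position -57), 2 times in TIPARP, 5 times in TENM4, once in VGF and DDAH1 and not in MYOF. It is a short motif that 36.3% of the 27305 stretches of the table and 50.5% of those of the tested genes hold. Of the kept higher genes with an entry, 52.4% of 206 held it, and of the kept lower genes 57.1% of 56, shares close to that of all tested genes. A match is a description of the letters in this window.

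Most genes for cytosolic ribosomal proteins were among the kept higher genes (72.2%, against 1.95% of all tested genes). Of 79 tested genes for cytosolic ribosomal proteins, TCDD raised 62 with RSV, which is 78.5% against 3.89% of all tested genes, and 65 without RSV, and 57 rose in both. These 57 are 18.2% of all kept higher genes. None was called lower, 1 had an unadjusted p below 0.05 in that direction, and DESeq2 called 66 higher and none lower. The median log2 fold change was 0.40 with RSV and 0.42 without, beside 0.002 and -0.0046 for all genes. Under spike-in scaling the list median with RSV turned to -0.63, which was 0.40 above that of all genes.

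RPL37, a protein of the large subunit, was at 681 and 659 CPM with RSV and at 963 and 988 with RSV+TCDD, and at 804 and 799 with vehicle and 1194 and 1192 with TCDD. RPS16, of the small subunit, was at 554 and 519 CPM with RSV against 815 and 805 with RSV+TCDD. In both genes the RSV+TCDD libraries lay above the RSV libraries without overlap. The log2 fold changes with RSV were 0.54 for RPL37 (standard error 0.08, adjusted p = 8.60e-04), 0.59 for RPS16 and 0.64 for RPS9, and these 3 genes stayed called when each library was left out. The whole list summed to 43700 and 41630 CPM with RSV, 55450 and 57770 with RSV+TCDD, 52650 and 51940 with vehicle, and 70420 and 70920 with TCDD. RSV alone therefore held the lowest sums and TCDD alone the highest, and the libraries of each TCDD group lay above their controls.

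All but 1 of the 79 genes had a log2 fold change above 0 with RSV. The exception was RPL36A (-0.72, not called). No interaction was called in the list, and the interactions ranged from -0.26 to 0.16. The number called was 28 without RSV replicate 2 and 24 without RSV+TCDD replicate 2, and 59 and 42 without the other 2 libraries. Ribosomal protein genes share reads with near-identical pseudogenes, so reads may be split between them. Of 82 tested symbols of such copies, 23 were called higher and none lower, against 3.89% and 2.28% of all tested genes.

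Genes near to the ribosome in function did not all move this way. Among 16 tested translation factors and other mRNAs of the TOP class, a list chosen after values were seen, 10 were called higher (against 3.89% of all tested genes) and 8 of these were kept, with a median of 0.32. TPT1, a translationally controlled tumour protein, had a log2 fold change of 0.42 and the elongation factor EEF2 of 0.41. In contrast, of 46 proteins of the large subunit of the mitochondrial ribosome, also chosen after values were seen, none was called by edgeR or DESeq2, 3 had an unadjusted p below 0.05, and the median was 0.06. Of 18 ribosome biogenesis factors, 1 was called, and it was lower (5.56%, against 2.28% of all tested genes). This was UTP20, a factor of small subunit assembly, which fell by 0.42 on the log2 scale. UTP20 lost the call without any library but RSV replicate 1, and the list median was -0.14 with and without RSV.

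The starts of ribosomal protein genes are shown for a letter pattern there that the rule did not use. Each line runs from 30 bases before to 10 bases after the annotated start in RefSeq on GRCh38.p14, and capitals mark a run of pyrimidines (C or T) that begins with C, holds at least 4 further pyrimidines and begins within 2 bases of the start.
RPS16: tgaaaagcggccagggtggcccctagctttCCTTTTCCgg
RPS9: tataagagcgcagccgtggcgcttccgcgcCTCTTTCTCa
RPL32: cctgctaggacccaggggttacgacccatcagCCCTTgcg
RPL14: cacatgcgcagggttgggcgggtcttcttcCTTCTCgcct
MRPL12: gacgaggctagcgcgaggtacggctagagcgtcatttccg
MRPL48: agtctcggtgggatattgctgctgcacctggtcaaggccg

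RPS16, RPS9, RPL32 and RPL14 are the kept ribosomal protein genes of smallest p with an entry, and the mitochondrial genes MRPL12 and MRPL48, chosen by hand, are shown for contrast. Such a run began at the start of 46 of the 63 ribosomal protein genes with an entry, called or not (73.0%). The same run began at the start of 9 of 11 translation factors and other TOP mRNAs (81.8%). It did so in 4 of 40 mitochondrial ribosomal protein genes (10.0%), which is close to the 10.5% of all stretches. Of the kept higher genes outside the ribosomal list, 17.3% of 162 held it, and of all tested genes 12.3%. The TOP class is defined by such a run, so the share in the list of TOP mRNAs was set by its choice. Raised and other ribosomal protein genes were not compared for the run. These shares describe annotated starts, and no measurement of translation was used here.

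Several measures moved together with the ribosomal protein genes. Ribosomal protein mRNAs are short, and log2 fold changes fell weakly with transcript length across 13218 genes with a length (Spearman correlation -0.09 with RSV and -0.17 without, over genes that are no independent replicates). The 720 other genes with transcripts under 1000 bases had a median of 0.07 with RSV and 0.17 without. With RSV 6.11% of them were called higher, against 3.89% of all tested genes. Several members of a list of transcripts taken as held in the nucleus moved the other way. The list holds MALAT1, NEAT1 and KCNQ1OT1 but also protein-coding genes such as NKTR, GOLGA8B and CCNL1. Counts per gene do not separate a nuclear form of these. Of the 15 members, chosen after values were seen, TCDD lowered 8 with RSV and 5 without (against 2.28% and 2.01% of all tested genes), all 5 of them among the 8. The medians were -0.73 and -0.43, and CLK1 was above 0 with RSV (0.37, not called). MALAT1, an abundant nuclear RNA, was at 145 and 203 CPM with RSV and at 75.9 and 72.2 with RSV+TCDD (-1.23, adjusted p = 1.93e-04). NEAT1, another one, was not called (-0.56). The part of transcript length or of RNA fractions in these results was not tested.

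**Figure D2:**
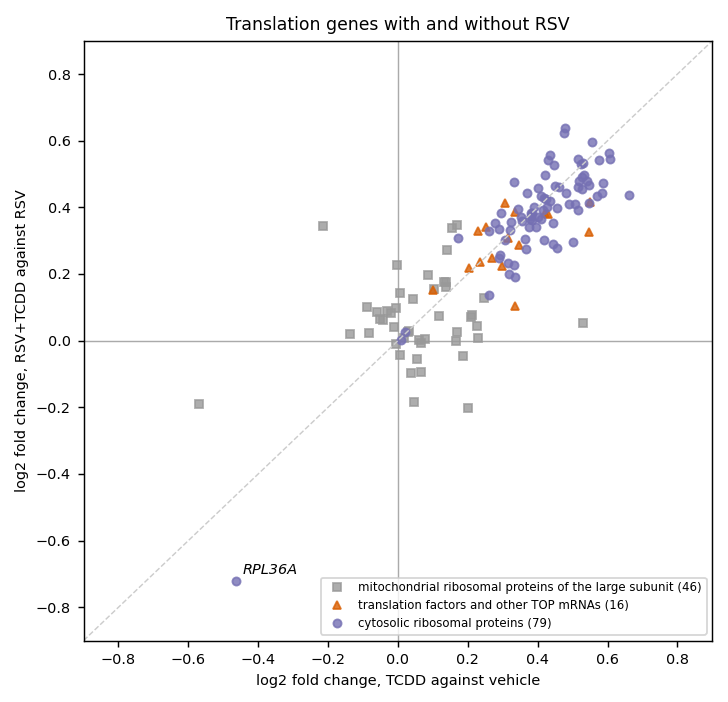
Log2 fold change of TCDD with RSV (vertical axis) against that without RSV (horizontal axis) for 79 cytosolic ribosomal protein genes (circles), 16 translation factors and other TOP mRNAs (triangles) and 46 mitochondrial ribosomal protein genes (squares). The dashed line marks equal values. On this TMM scale, which spike-in scaling turns negative for the circles (median -0.63), the circles cluster around 0.40 on both axes, apart from RPL36A at -0.72 and -0.46, and the squares around 0.06.

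Several pigment genes rose with TCDD in the presence and in the absence of RSV. Melanin is made in melanosomes by tyrosinase and its relatives on a scaffold of PMEL fibrils, and these genes are controlled by MITF and SOX10. Of 18 tested genes of this list, TCDD raised 6 with RSV (33.3%, against 3.89% of all tested genes) and lowered none, with a median log2 fold change of 0.34, and raised 6 without RSV (against 4.72% of all tested genes), with a median of 0.23. PMEL, TYR, OCA2, RAB38 and DCT rose in both, and MLANA passed the threshold with RSV. Under spike-in scaling the list median with RSV was -0.68, which was 0.34 above that of all genes.

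PMEL, the fibril protein, was at 5811 and 5699 CPM with RSV and at 8872 and 8901 with RSV+TCDD. Without RSV it went from 7860 and 7862 CPM to 11490 and 11990. The log2 fold changes were 0.63 (standard error 0.07, adjusted p = 1.93e-04) and 0.58. TYR, tyrosinase, was at 598 and 646 CPM with RSV and at 1043 and 977 with RSV+TCDD (0.70, adjusted p = 1.93e-04). RSV alone held the lowest levels of both genes, and the 2 RSV+TCDD libraries lay above the RSV libraries in each case. OCA2, a melanosomal ion transporter, was at 39.2 and 44.6 CPM with RSV, 60.4 and 58.1 with RSV+TCDD, 116 and 86.0 with vehicle and 171 and 164 with TCDD, so it rose by 0.50 with RSV at a level below that of vehicle. PMEL and TYR stayed called when each library was left out, whereas OCA2 lost the call without RSV replicate 1 (0.42), RSV+TCDD replicate 1 (0.48) or RSV+TCDD replicate 2 (0.53), and RAB38 (0.39) without RSV replicate 1 (0.31) or RSV+TCDD replicate 2 (0.30). The list count was 2 without RSV replicate 1, 2 without RSV+TCDD replicate 2 and 9 without RSV replicate 2.

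MITF itself, the master regulator of this programme, was at 457 and 634 CPM with RSV and at 588 and 707 with RSV+TCDD, so the groups overlapped (0.25, adjusted p = 0.398). Among 14 tested genes of the melanocyte lineage and phenotype switch, 4 rose with RSV (28.6%, against 3.89% of all tested genes). SOX10, a neural crest factor, went from 441 and 390 to 564 and 511 CPM (0.37, adjusted p = 0.0245), the endothelin receptor EDNRB rose by 0.45, the stem cell factor receptor KIT by 0.37 and SNAI2 by 0.43. KIT and SNAI2 were kept, with log2 fold changes of 0.71 and 1.22 without RSV. EDNRB lost the call without RSV replicate 1 or RSV+TCDD replicate 2, SOX10 without RSV replicate 2 or RSV+TCDD replicate 1, and KIT and SNAI2 without any library but RSV replicate 2 (0.26 to 0.51 in these fits). A fit of the 4 libraries alone did not call SOX10, KIT and SNAI2.

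Genes of sterol synthesis rose in part. INSIG1, the ER anchor that holds back SREBP processing, was at 37.9 and 40.9 CPM with RSV and at 62.3 and 87.2 with RSV+TCDD, without overlap (0.92, standard error 0.13, adjusted p = 8.60e-04). DHCR7, which makes cholesterol in the last step, rose by 0.66, farnesyl diphosphate synthase FDPS by 0.39 and squalene synthase FDFT1 by 0.37. These 4 of 24 tested genes (16.7%, against 3.89% of all tested genes) were the ones called with RSV, and 7 were called higher without it (against 4.72%), while 21 of the 24 had a log2 fold change above 0 with RSV, and the median was 0.29 with RSV and 0.32 without. INSIG1, FDPS and FDFT1 were kept. Without RSV+TCDD replicate 2 the number called was 2, since FDPS (0.31) and FDFT1 (0.28) lost the call, and without RSV+TCDD replicate 1 it was 6. FDPS also lost it without RSV replicate 1 (0.39) or 2 (0.40), FDFT1 without RSV replicate 1 (0.31) and DHCR7 without RSV replicate 2 (0.55), while INSIG1 stayed called. Under spike-in scaling the 4 genes were negative, from -0.14 for INSIG1 to -0.67 for FDFT1. Of 19 genes of fatty acid synthesis and desaturation, INSIG1, which this list also holds, was the only one called (5.26%, against 3.89% of all tested genes).

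A few genes of amino acid and serine metabolism fell. Of 20 genes of the ATF4 and serine synthesis list, TCDD lowered 3 with RSV (15.0%, against 2.28% of all tested genes), and all 3 were kept. PSAT1, an aminotransferase of serine synthesis, was at 65.0 and 63.6 CPM with RSV and at 40.2 and 35.7 with RSV+TCDD, and went from 53.4 and 60.2 with vehicle to 36.9 and 33.8 with TCDD. The log2 change was -0.76 (standard error 0.11, adjusted p = 0.001) and stayed called without each library. The cystine transporter SLC7A11 fell by 0.51 and the mitochondrial folate enzyme MTHFD2 by 0.39, and SLC7A11 lost the call without any library but RSV replicate 1 (-0.44 to -0.50), MTHFD2 without each of the 4 (-0.33 to -0.43). ATF4 itself was at 0.13 and PHGDH, the first enzyme of serine synthesis, at 0.30, neither called. The list median was -0.11 with RSV and -0.28 without. Among aminoacyl tRNA synthetases QARS rose (0.37) and VARS fell by 0.35 on the log2 scale. QARS lost the call without RSV+TCDD replicate 2 (0.37), and VARS without any library but RSV replicate 2 (-0.26 to -0.35).

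**Figure D3:**
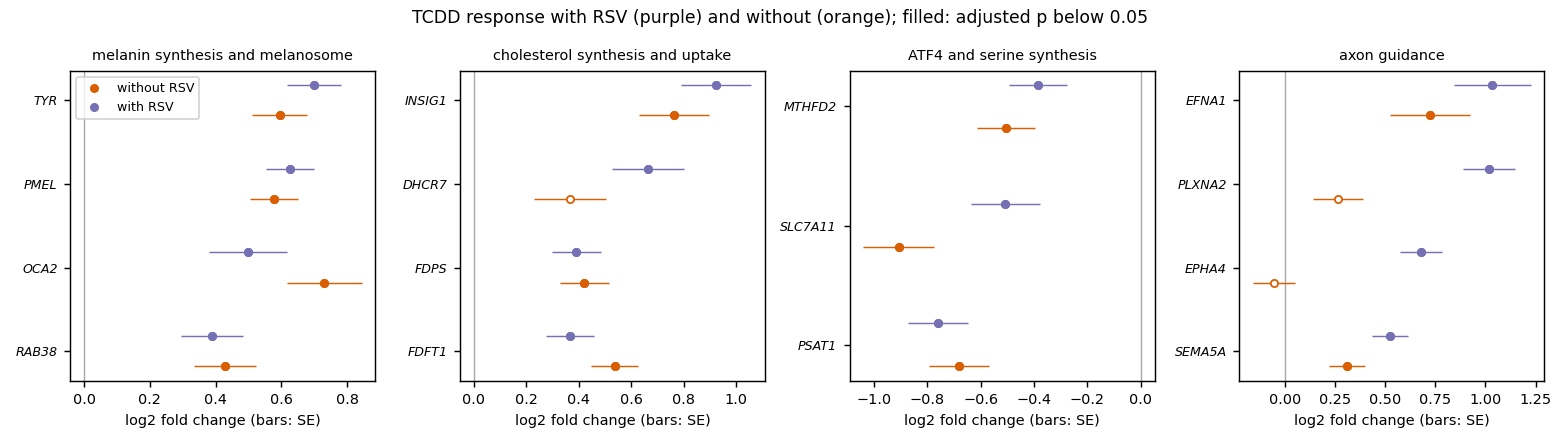
Log2 fold change of TCDD with RSV (purple) and without (orange) for the called members of smallest p (up to 4) of 4 gene lists, with bars for the standard error and filled points for an adjusted p below 0.05. TYR and PMEL lie near 0.6 to 0.7 with RSV, INSIG1 at 0.92, PSAT1 at -0.76, and EFNA1 and PLXNA2 at 1.03 and 1.02.

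The called genes of the collagen, laminin and integrin list fell with RSV. Among other matrix and adhesion genes named below, MGP, PRELP, TENM4 and MMP2 rose and COL12A1 fell. Of 23 tested collagens, laminins and integrins, TCDD lowered 5 with RSV (21.7%, against 2.28% of all tested genes) and raised none, while 4 had an unadjusted p below 0.05 in the upward direction and DESeq2 also called 5 lower and none higher. Without RSV it raised 5 and lowered 3, against 4.72% and 2.01% of all tested genes. LAMB1, a laminin chain, was at 85.9 and 92.8 CPM with RSV and at 55.9 and 48.9 with RSV+TCDD (-0.77, standard error 0.10, adjusted p = 5.17e-04). ITGA6, a laminin receptor subunit, was at 107 and 131 CPM with RSV against 75.1 and 76.0 with RSV+TCDD (-0.66), and at 116 and 127 with vehicle against 55.5 and 50.4 with TCDD (-1.20). LAMB1, ITGA6 and ITGB8 were kept, and the first 2 stayed called without each library. LAMA4 fell by 0.61 and TNC, tenascin C, by 2.37 on the log2 scale, the latter from a mean of 1.3 CPM to 0.304 and 0.189, and DESeq2 did not call TNC. LAMA4 lost the call without any library but RSV replicate 1 (-0.59 to -0.62), and TNC without RSV+TCDD replicate 2 (-2.06). FN1, fibronectin, which was among the raised genes without RSV (1.35), was not called with RSV (0.33, adjusted p = 0.0864), and its interaction was -1.02 (adjusted p = 0.0119), a call lost without TCDD replicate 1 (-0.96) or RSV+TCDD replicate 2 (-0.94). LUM, the fibroblast marker that held most of that list's counts, was at 9.89 and 13.0 CPM with RSV, 10.4 and 13.2 with RSV+TCDD, 13.9 and 11.2 with vehicle and 38.2 and 30.8 with TCDD, and its part in these results was not tested.

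Of 16 tested TGF-beta response genes, TCDD lowered 2 with RSV, the helix-loop-helix inhibitors ID1 and ID2 (against 2.28% of all tested genes), and both were kept (against 0.466%). ID1 was at 13.9 and 7.46 CPM with RSV, 5.07 and 4.76 with RSV+TCDD, 3.85 and 4.41 with vehicle and 1.40 and 1.69 with TCDD. Its log2 fold change of -1.11 (adjusted p = 0.0197) was -0.60 and not called without RSV replicate 1, whose level was the highest, and it was not called without RSV+TCDD replicate 1 (-1.15) or 2 (-1.06) either. ID2 fell by 0.62 with RSV and by 1.20 without, and with RSV it lost the call without each of the 4 libraries (-0.54 to -0.69). Without RSV, 6 genes of the list were lowered, against 2.01% of all tested genes.

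Several axon guidance genes rose with TCDD on top of RSV. TCDD raised 7 of 28 tested genes (25.0%, against 3.89%) and lowered none, with a median of 0.20. Without RSV it raised 4 (against 4.72% of all tested genes), with a median of 0.06. One had an unadjusted p below 0.05 downward with RSV, and DESeq2 called 8 higher and none lower with RSV. EFNA1, an ephrin ligand, was at 5.37 and 5.67 CPM with RSV and at 12.0 and 10.7 with RSV+TCDD (1.03, adjusted p = 0.004). PLXNA2, a semaphorin receptor, was at 14.8 and 13.9 CPM with RSV and at 32.1 and 26.1 with RSV+TCDD (1.02, standard error 0.13, adjusted p = 2.75e-04). EPHA4, an ephrin receptor, rose from 59.3 and 61.4 to 102 and 90.5 CPM (0.68), and SEMA5A, a membrane semaphorin, rose by 0.52. EFNA1, SEMA5A and the netrin NTN1 were kept. PLXNA2 (0.27) and EPHA4 (-0.05) were not called without RSV, but the differences did not pass the test of the interaction (adjusted p = 0.122 and 0.0575). All 4 named genes stayed called without each library.

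Redox and conjugation genes moved singly. TKT, transketolase of the pentose phosphate pathway, was at 390 and 327 CPM with RSV and at 579 and 579 with RSV+TCDD (0.69, standard error 0.09, adjusted p = 4.73e-04) and was kept. GCLM, a subunit of the enzyme that starts glutathione synthesis, fell from 88.4 and 87.9 to 60.5 and 63.1 CPM (-0.51). With SLC7A11 these were the 3 called of 18 NRF2 antioxidant genes. Of this list 5.56% were higher and 11.1% lower, against 3.89% and 2.28% of all tested genes. Of 18 tested conjugation and efflux genes, the glutathione transferases MGST3 (0.51), GSTO1 (0.39) and GSTP1 (0.44) rose and were kept, and the efflux pump ABCC5 fell by 0.45 on the log2 scale. Of this list 16.7% were higher and 5.56% lower, against the same 3.89% and 2.28%. MGST3 and TKT stayed called without each library. Without RSV+TCDD replicate 2, GSTO1 (0.28), GSTP1 (0.39) and ABCC5 (-0.28) lost the call. GSTO1 also lost it without RSV replicate 1 (0.36), GSTP1 (0.34) and ABCC5 (-0.37) without RSV replicate 2, and GCLM without RSV+TCDD replicate 1 (-0.48). Under spike-in scaling TKT (-0.34), MGST3 (-0.53), GSTO1 (-0.66) and GSTP1 (-0.60) were negative.

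Some transcripts of the mitochondrial genome fell with TCDD on top of RSV. TCDD lowered 3 of the 13 (23.1%, against 2.28% of all tested genes), MT-CO2, MT-ND5 and MT-ND4, and the median was -0.46 with RSV and 0.03 without. MT-ND5, a subunit of complex I, was at 2786 and 3427 CPM with RSV, 1962 and 1772 with RSV+TCDD, 1328 and 1659 with vehicle and 1590 and 1812 with TCDD. Its fall of 0.73 was therefore from a level in RSV above that of the other groups. The interaction was -0.92 (adjusted p = 0.238), and the 3 calls were lost without RSV replicate 2 (-0.57 for MT-ND5), RSV+TCDD replicate 1 (-0.81) or RSV+TCDD replicate 2 (-0.66). DESeq2 called 7 of the 13 lower. Of 28 nuclear encoded respiratory chain genes, UQCRB, of complex III, was called (0.37, lost without RSV replicate 1 or RSV+TCDD replicate 2, 0.30 and 0.29) and kept, and 25 had a log2 fold change above 0. This 1 call is 3.57% of the list, against 3.89% of all tested genes called higher.

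Cell cycle, survival and signalling genes gave few calls. PLK1, a mitotic kinase, fell from 42.1 and 42.6 CPM with RSV to 28.0 and 26.1 with RSV+TCDD (-0.65, adjusted p = 0.0033) and stayed called without each library, while vehicle and TCDD libraries lay between 122 and 154 CPM. TPX2, a spindle protein, fell by 0.36 and MKI67 by 0.37 on the log2 scale. With PLK1 these were the 3 called of 25 mitosis genes (12.0%, against 2.28% of all tested genes called lower). None of them was called without RSV. MKI67 lost its call without RSV replicate 1, RSV replicate 2 or RSV+TCDD replicate 2 (-0.23 in the last), and TPX2 without RSV replicate 2 or RSV+TCDD replicate 2 (-0.32 and -0.29). CCND1, the G1 cyclin, rose from 393 and 403 to 529 and 574 CPM (0.47, adjusted p = 0.00327), the inhibitor CDKN1C rose by 0.86 and CDKN2B fell by 0.51. With CCND1, EPHA4 and the ETS factor ETV4 (0.45) were the called genes among 16 of MAPK output (18.75%, against 3.89% of all tested genes). None of these 3 was kept. CDKN1C lost the call without RSV replicate 2 (0.57), RSV+TCDD replicate 1 (0.78) or RSV+TCDD replicate 2 (0.94) and was not called by DESeq2. CDKN2B lost it without any library but RSV replicate 2 and ETV4 without any but RSV replicate 1.

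BMF, a pro-apoptotic BH3-only protein, was at 21.3 and 19.8 CPM with RSV, 34.3 and 31.9 with RSV+TCDD, 12.2 and 11.8 with vehicle and 36.4 and 34.9 with TCDD. It rose both with RSV (0.69) and without (1.57), from a lower level in vehicle than in RSV, and the interaction was -0.88 (adjusted p = 0.0401). BCL2A1, an anti-apoptotic relative, rose by 0.46 and BAD by 0.51. With BMF, 3 of 15 BCL2 family genes were called higher, against 3.89% of all tested genes. TP53I3 fell by 1.20 and was the only one called of 21 p53 targets (4.76%, against 2.28% of all tested genes called lower). HEY1, a Notch effector, rose from 88.1 and 84.8 to 121 and 132 CPM with RSV (0.55), but was not called without (-0.14), with an interaction of 0.69 (adjusted p = 0.0491). In the receptor tyrosine kinase list, INSR (0.69), MERTK (0.39) and KIT rose and DDR2 fell by 0.85. In the MHC class I list the proteasome activator PSME1 (0.36), HLA-B (0.40) and the transporter TAP1 (0.39) rose, of which the first 2 were kept. These 3 are 18.75% of its 16 tested genes, against the same 3.89%. BMF and HEY1 stayed called higher with RSV without each library. Among the fits that leave out 1 library, the interaction of HEY1 was called only in that without vehicle replicate 2 (0.77) and not without any of the other 7 libraries (0.61 to 0.75), and that of BMF only without vehicle replicate 2 (-0.84) or RSV replicate 2 (-0.93). The calls of BCL2A1, BAD, HLA-B and INSR were lost without RSV replicate 2, where BAD was 0.335, and also without RSV+TCDD replicate 1 for BAD, HLA-B and INSR and without RSV+TCDD replicate 2 for BCL2A1, BAD and HLA-B. MERTK lost the call without RSV replicate 1 or RSV+TCDD replicate 1, TP53I3 without RSV+TCDD replicate 2 (-0.96), and PSME1, TAP1 and DDR2 without each of the 4 libraries.

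Further lists gave few calls. MMP2 (0.47, kept) and ADAM10 (0.39) rose among matrix proteases, NPC2 (0.40, kept) rose while LAMP1 (-0.30) and CTSK (-1.35) fell among lysosomal genes, and ACTG1 (0.32), POLA1 (0.36) and HNRNPA1 (0.34) rose in the actin, replication and splicing lists. SRSF6 (-0.48), EDEM1 (-0.48), PSMD2 (-0.30), STAT2 (-0.40) and RUNX2 (-0.79) fell in the lists of splicing, ER chaperones, proteasome, interferon and α-signature genes. Of these genes MMP2 and NPC2 alone were also called without RSV. Each of them lost its call without at least 1 library: RSV replicate 1 for ADAM10, POLA1, HNRNPA1, LAMP1 and PSMD2, RSV replicate 2 for all but ADAM10 and HNRNPA1, RSV+TCDD replicate 1 for all but MMP2, ADAM10 and STAT2, and RSV+TCDD replicate 2 for all but SRSF6. Of the 8 tested α-signature genes named in the study's text, 2 fell with RSV, RUNX2 and CYP1A1 (25.0%, against 2.28% of all tested genes). None rose with RSV, while 3 rose without it (against 4.72% of all tested genes). Their median was -0.335 with RSV and 0.177 without. In 12 of the 46 lists no member was called by edgeR, namely glycolysis, hypoxia, cytosolic heat shock proteins, mitochondrial biogenesis, replication dependent histones, NF-kB and cytokines, early response factors, YAP/TEAD targets, Wnt, circadian clock, autophagy and the study's resistance genes. Of their 182 tested members 30 had an unadjusted p below 0.05 by edgeR, against 3374 of all 16080 tested genes. DESeq2 called 3 of the members (NR1D1, PPARGC1A and WIPI1). Of all tested genes, edgeR called 3.89% higher and 2.28% lower. The list medians ranged from -0.32 to 0.51. Of the study's 7 listed resistance genes 5 were tested. AXL and NRP1 were not tested, with at most 3 and 12 counts in any of the 8 libraries.

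**Figure D4:**
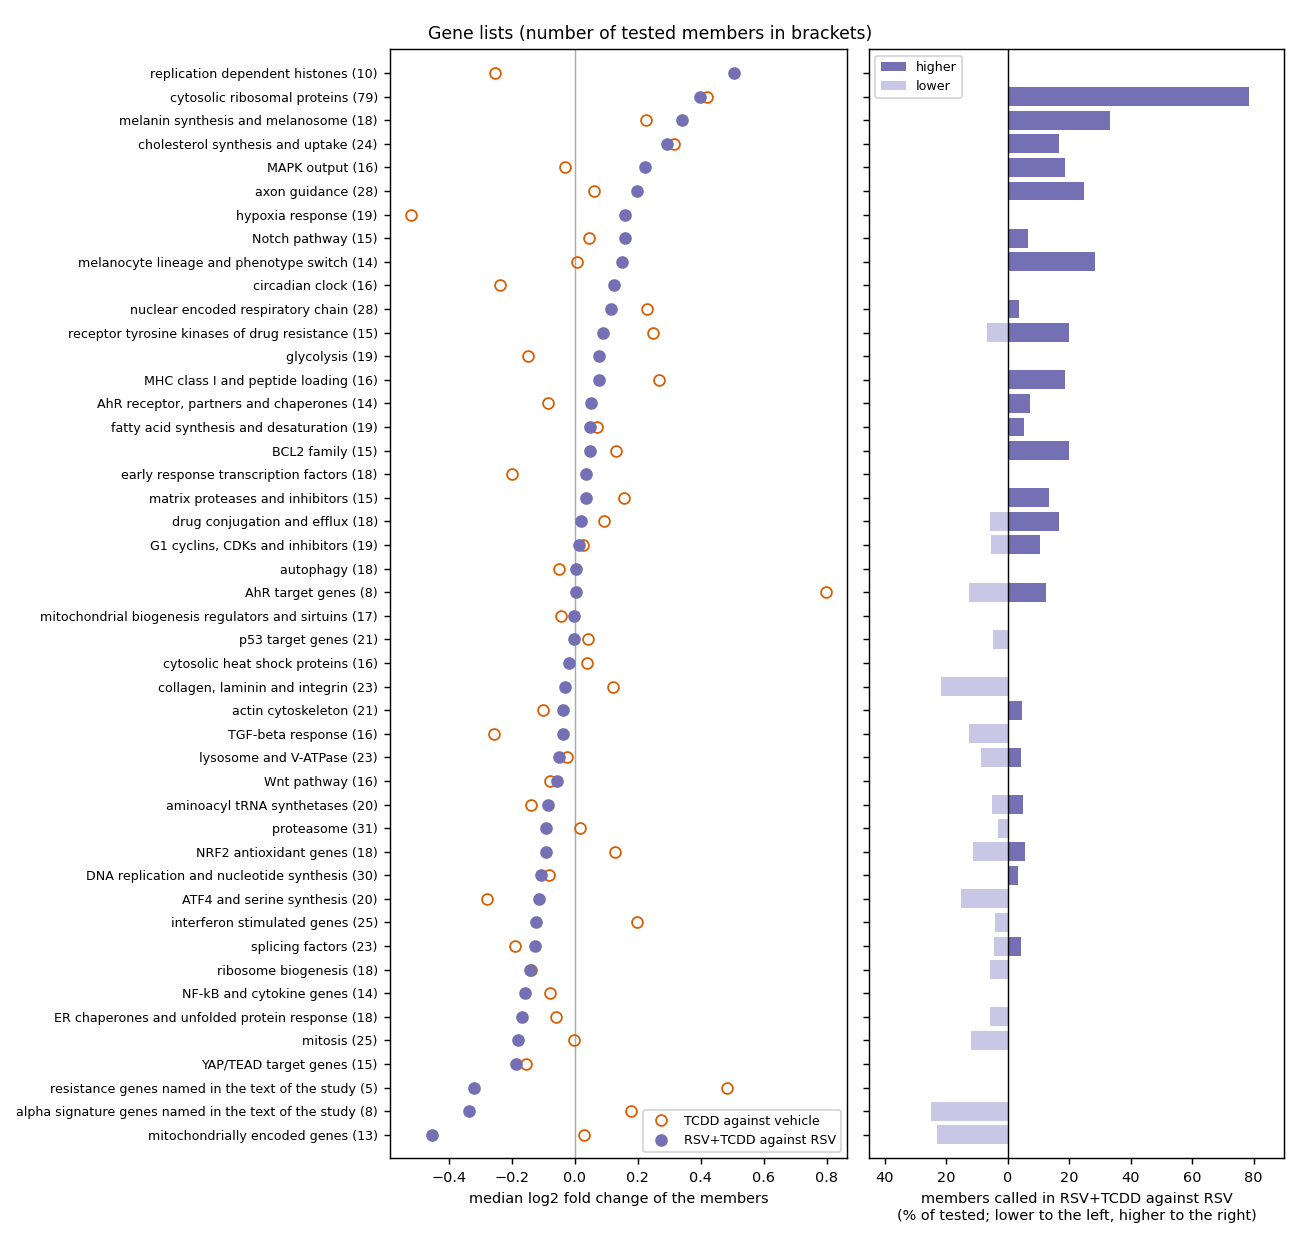
Left, median log2 fold change of TCDD with RSV (filled) and without (open) for each of 46 gene lists, with the number of tested members in brackets. Right, share of tested members called higher (to the right) or lower (to the left) with RSV. Of the cytosolic ribosomal proteins 78.5% were called higher (under spike-in scaling none was), and the AhR target genes drop from a median of 0.80 without RSV to 0.003 with it.

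Among called genes whose libraries did not overlap and whose higher group averaged at least 50 counts, the largest increases were in genes of several kinds. MGP, an inhibitor of matrix calcification, rose from 10.1 and 13.2 CPM with RSV to 35.8 and 46.8 with RSV+TCDD (1.82, standard error 0.15, adjusted p = 4.71e-06), and from 20.2 and 17.4 to 39.4 and 38.7 without RSV (1.05). LINC00462, a long non-coding RNA, was at 7.29 and 7.09 CPM with RSV against 19.7 and 27.3 with RSV+TCDD (1.71), and had 1.97 without RSV. TENM4, a teneurin adhesion protein, followed with 1.52, then the leucine-rich matrix protein PRELP (1.52), the cystatin CST2 (1.41), FAIM3 (1.39), the lipocalin PAEP (1.35), the neuropeptide precursor NTS (1.34), the zinc finger gene ZNF709 (1.33) and IAH1 (1.31). Most of these genes were low, with TENM4, PRELP, FAIM3, ZNF709 and IAH1 below 6 CPM in every RSV or RSV+TCDD library. MGP, LINC00462, CST2 and PAEP stayed called without each library. Without RSV replicate 2 the calls of TENM4 (1.53), PRELP (1.19) and FAIM3 (1.15) were lost, without RSV replicate 1 that of IAH1 (1.04), without RSV+TCDD replicate 1 that of TENM4 (1.31), and without RSV+TCDD replicate 2 those of FAIM3, NTS, ZNF709 and IAH1 (1.06 to 1.35). All of the 10 but ZNF709 were called without RSV as well.

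Under the same conditions the largest decreases were in ANXA1, an annexin that binds phospholipids, which fell from 8.26 and 6.88 CPM to 1.47 and 1.37 (-2.41, standard error 0.27, adjusted p = 1.48e-04), AP000347.2 (-2.29), SAMD5 (-1.96) and DDAH1 (-1.78). DDAH1, a dimethylarginine hydrolase, was at 18.3 and 23.6 CPM with RSV against 5.22 and 6.97 with RSV+TCDD, and at 14.9 and 14.7 with vehicle against 3.07 and 3.09 with TCDD. MSH5 (-1.74), AC008443.1 (-1.66), the forkhead factor FOXF2 (-1.58), the collagen COL12A1 (-1.58), the small GTPase RND3 (-1.51) and YJEFN3 (-1.44) followed. Without RSV, DDAH1, MSH5 and FOXF2 were called lower, and the log2 fold changes of the other 7 lay between -1.40 and -0.52. ANXA1 was at 0.860 and 0.809 CPM with vehicle, below its level in RSV, and no interaction was called among the 10. The call of AC008443.1 was lost without RSV+TCDD replicate 2 (-1.33), and that of COL12A1 without RSV replicate 2 (-1.44) or RSV+TCDD replicate 1 (-1.37).

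Among kept genes with at least 50 counts on average, the increases that were largest in both comparisons were LINC00462, CST2, TENM4, PRELP, VGF, RP11-166D19.1, RDH8 and CAMK1G. VGF, a secreted neuropeptide precursor, was at 76.8 and 45.4 CPM with RSV, 150 and 151 with RSV+TCDD, 21.8 and 21.0 with vehicle and 55.9 and 71.5 with TCDD (1.30 and 1.57). RDH8, a retinol dehydrogenase, was at 15.2 and 13.6 CPM against 32.6 and 31.7 with RSV and at 2.38 and 2.47 against 7.17 and 6.84 without (1.16 and 1.53). In both genes RSV alone stood above vehicle and TCDD added to it. The largest kept decreases were DDAH1, MYOF, FOXF2, ID1, GXYLT2 and CRYAB. MYOF, a membrane repair protein, fell by 1.36 with RSV and by 1.55 without, CRYAB, a small heat shock protein, by 1.00 and 1.39, and the xylosyltransferase GXYLT2 by 1.04 and 1.00. The call of MYOF was lost without RSV+TCDD replicate 2 (-1.07), and those of CRYAB (-0.92 and -0.95) and CAMK1G without RSV replicate 2 or RSV+TCDD replicate 2.

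**Figure D5:**
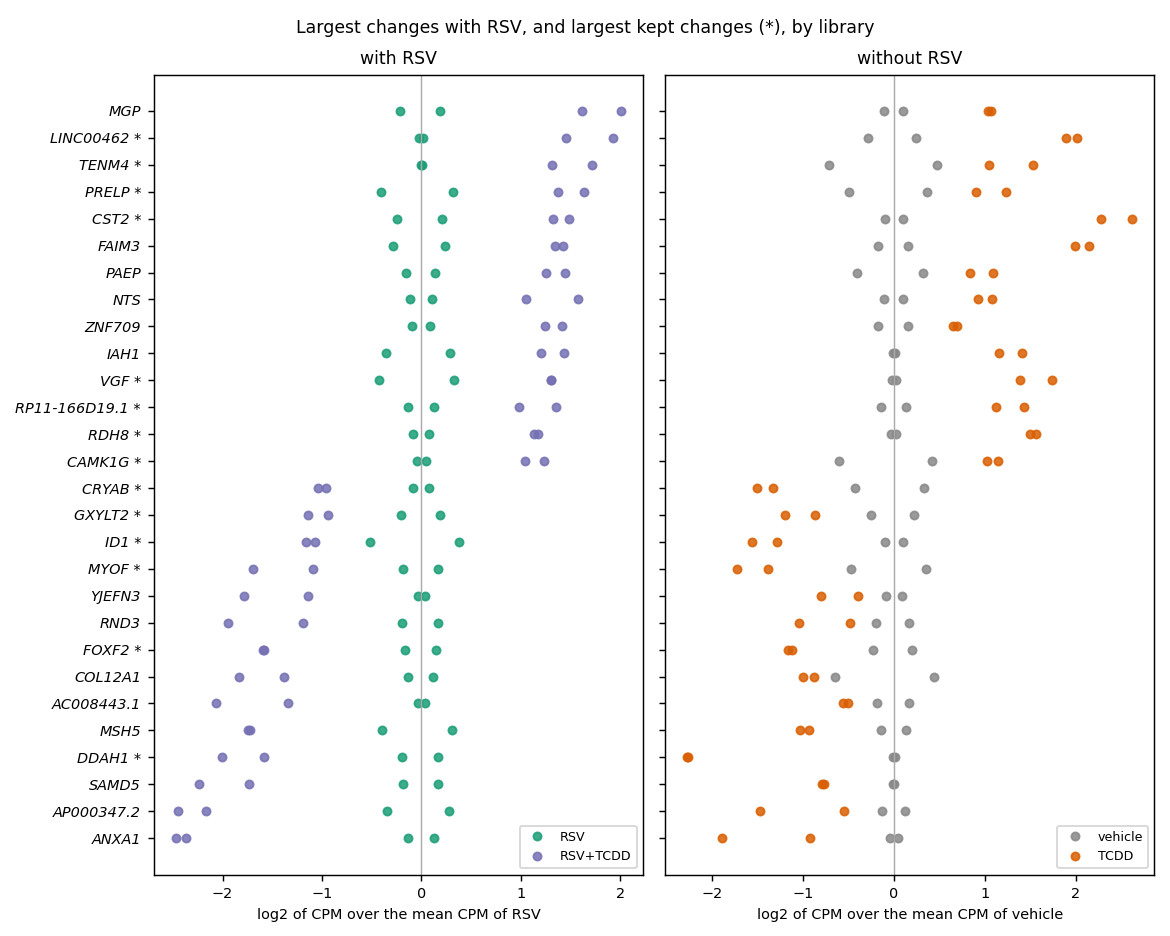
Level of the genes with the largest changes with RSV and of the largest kept changes (asterisks) in each library, as log2 of CPM over the mean of the control group, for RSV+TCDD and RSV (left) and for TCDD and vehicle (right). The genes were chosen for their size and for libraries that do not overlap, so the gap between RSV and RSV+TCDD is set by the choice. They range from MGP (1.82) to ANXA1 (-2.41) with RSV.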

How the data were processed

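Total RNA of treated 501Mel cells was made into stranded mRNA libraries and sequenced as read pairs by the authors, who aligned them to hg19 (GRCh37) with STAR 2.4.0a and counted them per gene name with featureCounts of Subread 1.5.0-p3. The deposited counts are raw and cover 56638 gene symbols besides 96 controls, of which 92 are ERCC spike-ins. The annotation release is not given in the sources used here.

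The control rows were left out and filterByExpr by group kept 16080 genes. edgeR 4.0.16 in R 4.3.3 fitted robust quasi-likelihood models with TMM factors and 1 term per group to all 12 libraries, so that 6 groups share 1 estimate of the spread. Two-sided p-values were adjusted over these genes by the Benjamini-Hochberg method, and a gene was called below 0.05. The biological coefficient of variation (common estimate) was 0.0915, and replicates differed beyond counting noise (chi-square per degree of freedom 13.4 with RSV and 9.34 with RSV+TCDD), and counts were not corrected for PCR copies. Named genes were the 10 largest changes in each direction and the kept genes of largest size (8 higher, 6 lower), for which libraries must not overlap and the higher group must average 50 counts, every tested AhR target, up to 4 called genes per list by smallest p, and up to 3 interactions in each direction. Genes outside this rule (FN1, LUM, MALAT1, NEAT1, TPT1, EEF2, RPL36A, MITF, AHR, ARNT, ATF4, PHGDH, NTN1, ITGB8, DCT, MLANA, RPL32 and RPL14, and those called by DESeq2 alone) were named after their values were seen. Some genes are not reported here. The members and the 46 lists were chosen with earlier results of these data known, and 3 further lists after values were seen. Results were recomputed with DESeq2 1.42.0, RLE factors, spike-in scaling, other filters on low counts, only the libraries compared, replicate blocks, a fold threshold, leaving out each library and, added after seeing the data, fits without robust estimation. The steps were tested on simulated data. Positions of genes are from GENCODE on GRCh37, which matched 82.2% of the tested symbols, and promoters are from RefSeq on GRCh38.p14. Figures were drawn with matplotlib 3.10.9.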

Additional observations from a re-analysis of the deposited data

Results flagged for a closer look

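For the genes named here the TCDD effect differed between the libraries with and without RSV, for which the labels also give different TCDD doses, by the interaction test of the model fitted to all 12 libraries. On the log2 scale the interaction was -3.32 for CYP1A1, -1.03 for NQO1, -0.88 for BMF, 0.69 for HEY1, -2.90 for CD96, -2.09 for RP11-1220K2.2, 1.30 for a gene known by its clone name alone -1.02 for FN1 and -1.43 for LUM, both named after their values were seen (adjusted p = 1.50e-09, 9.18e-04, 0.0401, 0.0491, 0.0238, 0.0119, 0.0215, 0.0119 and 0.0215, edgeR with Benjamini-Hochberg adjustment). When each of the 8 libraries was left out, the interactions of CYP1A1 and NQO1 stayed called. That of CD96 was lost without either TCDD library (-2.87 and -2.91), RSV replicate 2 (-2.87) or RSV+TCDD replicate 1 (-2.40), that of RP11-1220K2.2 without TCDD replicate 1 (-1.97), and that of LUM without TCDD replicate 1 (-1.25), RSV replicate 2 (-1.21) or RSV+TCDD replicate 1 (-1.26). The interaction of 1.30 was called only without vehicle replicate 2 (1.51) or RSV replicate 1 (1.47), and those of BMF, HEY1 and FN1 are given above. CD96 was at 1.63 and 1.68 CPM with RSV and at 0.862 and 2.12 with RSV+TCDD, against 1.11 and 0.566 with vehicle and 5.64 and 5.51 with TCDD. RP11-1220K2.2 was at 4.04 and 4.10 CPM with RSV against 2.79 and 2.83 with RSV+TCDD, and rose from 4.81 and 3.36 to 12.7 and 11.0 without RSV. The gene with 1.30 rose with RSV, from 14.2 and 11.3 to 21.5 and 22.1 CPM, and was not called without it (-0.52 on the log2 scale).

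The ERCC spike-ins, which the comparisons did not use, were at a mean of 784 CPM of gene counts in the RSV+TCDD libraries and of 381 in the RSV libraries. The values under scaling to them are given with the other alternatives, and the cause of the difference was not tested.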

How the results depend on the processing

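Over 1441 checks of the 112 named genes under the alternatives, 1163 kept direction and side of the threshold, 229 lost the call, 4 gained one and 45 reversed. Of the 991 calls with RSV, DESeq2 shared 847, RLE factors 962 and the fit of the compared libraries alone 527. With RSV the 625 higher and 366 lower genes became 347 and 239 with only the libraries compared, and 61 and 107 at an absolute log2 fold change of at least 1. Without RSV the 759 and 323 became 155 and 59 at that fold, and 695 were lower with no filter on low counts. The interaction (2 and 22) had 26 and 51 genes with DESeq2, 88 and 82 with no filter, 1 and 14 with at least 10 counts in every library, 0 and 7 with only the libraries compared, 1 and 14 at the fold threshold and 1 higher without robust estimation, an alternative chosen after seeing the data. The kept genes (313 and 75) were 19 and 10 at the fold threshold, and 153 were lower with no filter and 48 with only the libraries compared. At the fold threshold no AhR target was called in either direction, that is 0 and 0, and 0 cholesterol, 0 ribosomal and 0 melanin genes were called higher. With no filter 7 cholesterol and 10 melanin genes were higher, and with only the libraries compared 2 cholesterol genes.

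Scaling to the ERCC spike-ins moved the median of all genes to -1.02 and left 1 gene higher and 6926 lower with RSV, 2 and 8 without, 0 and 1 for the interaction, and 0 and 6 kept. It gave 0 higher and 5 lower AhR targets, 0 and 5 cholesterol genes, 0 and 2 ribosomal and 0 and 2 melanin genes. The log2 fold changes that reversed included -0.52 for CYP27A1, -0.34 for TKT, -0.53 for MGST3, -0.66 for GSTO1, -0.60 for GSTP1, -0.14 for INSIG1, -0.37 for DHCR7, -0.65 for FDPS, -0.67 for FDFT1, -0.66 for QARS, -0.66 for UQCRB, -0.49 for RPL37, -0.43 for RPS16, -0.41 for RPS9, -0.68 for HNRNPA1, -0.65 for POLA1, -0.56 for CCND1, -0.18 for CDKN1C, -0.33 for BMF, -0.59 for BCL2A1, -0.55 for BAD, -0.67 for PSME1, -0.63 for HLA-B, -0.63 for TAP1, -0.33 for EPHA4, -0.59 for ETV4, -0.49 for HEY1, -0.57 for MMP2, -0.63 for ADAM10, -0.71 for ACTG1, -0.48 for SEMA5A, -0.40 for PMEL, -0.31 for TYR, -0.51 for OCA2, -0.64 for RAB38, -0.58 for EDNRB, -0.63 for KIT, -0.65 for SOX10, -0.59 for SNAI2, -0.31 for INSR, -0.61 for MERTK, -0.62 for NPC2, -0.26 for the gene of clone name alone.

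Leaving out each library in turn gave 250 to 628 higher and 80 to 328 lower genes with RSV, 256 to 615 and 37 to 390 without, 0 to 126 and 4 to 53 for the interaction, and 127 to 303 and 21 to 91 kept. It gave 1 to 1 AhR targets in each direction, 2 to 6 cholesterol, 24 to 59 ribosomal and 2 to 9 melanin genes higher, and 0 to 0 lower in these 3 lists. Of 104 called named genes 38 stayed called in all 4 fits.

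The labels do not say what a replicate number shares. Replicate differences over genes had r = 0.15 between RSV and RSV+TCDD, 0.15 between RSV and RSV+Vem and 0.12 between RSV+Vem and RSV+TCDD, and 0.09 between vehicle and TCDD, while RSV and TCDD had -0.12. These values are a hint from the data that numbers within the RSV libraries may pair. A replicate block over 12 libraries gave 678 higher and 429 lower genes with RSV, and a replicate block within the RSV libraries 1275 and 1131, with 10 cholesterol and 11 melanin genes higher and 1 ribosomal and 1 melanin gene lower. The cause was not tested for any of these changes, and 2 libraries a group limit the precision of every value.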
